A study of Mus musculus with 272 samples.

Results

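The genes described here are the 3 mouse *Runx* genes, *Runx1*, *Runx2* and *Runx3*, and *Cbfb*, the gene of their shared partner subunit. They were taken by name from GENCODE M21 on mm10, which gave 4 of 21938 protein-coding genes. Their 33 annotated transcripts start at 31 distinct positions. Start sites of 1 gene no more than 500 bp apart were joined into 1 promoter, with 3 kb either side of each start site, which gave 11 of the 52546 promoters of protein-coding genes. Where the windows of a gene overlapped, so that they held the same peaks, they were also joined, which left 7 separate promoters: a distal P1 and a proximal P2 for each *Runx* gene, and 1 for *Cbfb*. All peaks in each gene and within 100 kb either side were taken as its locus.

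The series holds 272 samples on CRISPR-Cas9 editing of skeletal muscle stem cells (MuSCs), of which 8 libraries of chromatin were used here, with 2 replicates of each assay. ATAC-seq finds open chromatin. ChIP-seq was done for H3K4me3, found at the start of genes, H3K27ac, found where promoters or enhancers are active, and H3K27me3, laid down by the Polycomb complex PRC2. The cells came from Pax7Cas9 mice, made by crossing Pax7Cre mice with mice that carry a Cre-dependent Cas9 and EGFP at Rosa26, so that Cas9 is made only in cells that have expressed *Pax7* and in their progeny. The labels of these libraries name skeletal muscle and no age, treatment or individual animal, and there was no second condition, so that every value below describes 1 kind of cell and no comparison between conditions was possible. Nothing in the sources used here says whether the replicates came from separate mice.

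RUNX proteins bind DNA through the Runt domain, and CBFB, which does not touch the DNA itself, strengthens that binding. *Runx1* is best known for blood formation, *Runx2* for bone, and *Runx3* for T cells and sensory neurons. In mammals each *Runx* gene has a distal P1 promoter, poor in CpG, and a proximal P2 promoter, within a CpG island, which give proteins with different amino-terminal ends. H3K4me3 and H3K27me3 side by side at a CpG island, called a bivalent state, is common at genes of other lineages in stem cells.

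The peak lists held 94574 to 140937 peaks for ATAC-seq, 18006 to 20519 for H3K4me3, 18589 to 24217 for H3K27ac and 6080 to 10485 for H3K27me3. They give the fold enrichment at each peak's summit but not the reads under it. Depth is therefore unknown, and a missing peak means only that none was called. Of 13 MuSC markers, 13 had H3K4me3 and 12 had H3K27ac at a promoter in both replicates, against 60.8% and 46.6% of all protein-coding genes. The counts for H3K4me3 and H3K27ac were 4 and 1 of 9 blood markers, 5 and 3 of 10 markers of fibro-adipogenic cells, 5 and 1 of 10 endothelial markers, and 1 and 0 of 7 markers of bone and cartilage cells. ATAC-seq parted them less. It was at 13 of 13 MuSC, 7 of 9 blood, 6 of 10 fibro-adipogenic, 8 of 10 endothelial and 3 of 7 bone and cartilage markers. The share over all protein-coding genes was 67.8%. H3K27me3, found at 4.81% of all genes, was at 0 of the MuSC, blood and endothelial markers and at 1 each of the fibro-adipogenic and the bone and cartilage markers. The blood markers *Spi1* and *Csf1r* are RUNX targets as well, and the part of other cells in the peaks below was not tested.

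The sequences before the start sites show how the P1 and P2 promoters differ. They are from the RefSeq promoter table (GRCm38.p6), which held 6 of the 7 promoters (not *Runx2* P2), and end just before the first annotated start site. Each CpG is in capitals. The P1 promoters of *Runx1* (chr16:92826150-92826324, minus strand), *Runx2* (chr17:44814798-44814877, minus strand) and *Runx3* (chr4:135120395-135120644, plus strand) read as follows.
Runx1 P1: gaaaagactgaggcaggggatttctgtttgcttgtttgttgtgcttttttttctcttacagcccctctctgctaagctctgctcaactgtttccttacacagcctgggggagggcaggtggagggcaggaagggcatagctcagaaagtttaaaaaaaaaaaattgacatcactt
Runx2 P1: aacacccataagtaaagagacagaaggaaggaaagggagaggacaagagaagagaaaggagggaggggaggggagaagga
Runx3 P1: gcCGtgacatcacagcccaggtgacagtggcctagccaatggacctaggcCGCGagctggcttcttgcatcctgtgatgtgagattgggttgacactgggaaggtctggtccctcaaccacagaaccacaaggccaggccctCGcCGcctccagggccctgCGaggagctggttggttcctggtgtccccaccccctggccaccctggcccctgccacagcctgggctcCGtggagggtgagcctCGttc

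The stretches hold 0 CpGs in 175 bases, 0 in 80 bases and 8 in 250 bases. The P2 promoters of *Runx1* (chr16:92697330-92697579, minus strand) and *Runx3* (chr4:135152295-135152495, plus strand) and the *Cbfb* promoter (chr8:105170424-105170673, plus strand) are shown for contrast.
Runx1 P2: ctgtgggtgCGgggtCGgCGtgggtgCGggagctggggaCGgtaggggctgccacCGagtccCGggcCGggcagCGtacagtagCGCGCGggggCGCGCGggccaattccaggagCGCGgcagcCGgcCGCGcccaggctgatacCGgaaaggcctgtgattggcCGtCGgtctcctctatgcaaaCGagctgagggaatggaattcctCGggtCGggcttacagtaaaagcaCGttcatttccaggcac
Runx3 P2: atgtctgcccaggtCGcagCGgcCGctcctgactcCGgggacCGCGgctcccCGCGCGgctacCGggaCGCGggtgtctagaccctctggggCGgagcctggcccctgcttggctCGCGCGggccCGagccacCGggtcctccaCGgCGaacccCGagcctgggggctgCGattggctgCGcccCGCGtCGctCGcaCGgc
Cbfb: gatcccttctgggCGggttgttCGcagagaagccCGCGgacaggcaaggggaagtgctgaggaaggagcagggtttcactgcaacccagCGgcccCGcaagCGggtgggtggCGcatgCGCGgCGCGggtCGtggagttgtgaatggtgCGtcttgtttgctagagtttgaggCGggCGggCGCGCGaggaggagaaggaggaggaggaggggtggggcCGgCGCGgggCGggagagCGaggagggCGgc

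These held 27 CpGs in 250 bases, 28 in 201 bases and 25 in 250 bases. Counted over 300 bases around the first start site, *Runx1* P2 had 35, *Runx3* P2 had 44 and *Cbfb* had 30, against a median of 5 over the 52546 promoters. *Runx2* P2 stood lower, with 7 at its first start site and 22 at its last group of start sites. By the same count the P1 promoters had 3 (*Runx1*), 0 (*Runx2*) and 8 (*Runx3*). *Runx3* P1 thus stood above the median, and above *Runx2* P2 at its first start site.

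The P1 promoters share 1 further feature. A run of 14 bases that joins RUNX core sites, ACCACA on this strand and TGTGGT on the other, lies near the start of all 3 transcripts. It is in capitals below, in 30 bases each from *Runx1* (chr16:92826025-92826054, minus strand), *Runx2* (chr17:44814583-44814612, minus strand) and *Runx3* (chr4:135120503-135120532, plus strand).
Runx1 P1 joined sites: cataaacaACCACAGAACCACAagttgggt
Runx2 P1 joined sites: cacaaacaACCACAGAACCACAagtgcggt
Runx3 P1 joined sites: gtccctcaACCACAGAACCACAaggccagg

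The run starts at +29 and +24 from the RefSeq start site of *Runx1* and *Runx2*, and at −134 of *Runx3*. Searched on both strands, it was found in 4 of 32851 RefSeq promoters (0.0122%), those of the 3 *Runx* genes and of *Gm16225*, a long non-coding RNA that starts beside *Runx3* on the other strand and shares its site. The core site alone was found in 16.8% of these promoters. The run was searched for after it had been seen in these sequences, so that its rarity is a description, and a match does not show binding.

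Most of the promoters were open and carried H3K4me3, and they parted over H3K27ac and H3K27me3. Of the 11 promoters, 10 had ATAC-seq peaks in both replicates (48.3% of all promoters), 9 had H3K4me3 (37%), 5 had H3K27ac (28.5%) and 4 had H3K27me3 (2.99%). With only 1 kb either side of the start sites ATAC-seq was left at 7 of the 11, without *Runx1* P1. The same promoters were marked in each replicate as in both. Several of the 11 share their peaks, and over the 7 separate promoters the counts were 6, 5, 3 and 2. All shares given here are over promoters before such joining. Each of the 11 had the same combination of features as the joined promoter that holds it. *Runx1* P1, *Runx1* P2 and *Cbfb* had ATAC-seq, H3K4me3 and H3K27ac without H3K27me3, a combination found at 26.7% of all promoters. *Runx2* P2 and *Runx3* P2 had H3K4me3 and H3K27me3 without H3K27ac, found at 1.87%. H3K4me3 and H3K27me3 together, with or without H3K27ac, were found at 2.16%. *Runx3* P1 had ATAC-seq alone, found at 11.1%. *Runx2* P1 had no peak in any of the 8 lists, and 49.9% of all promoters had no feature in both replicates.

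**Figure D1:**
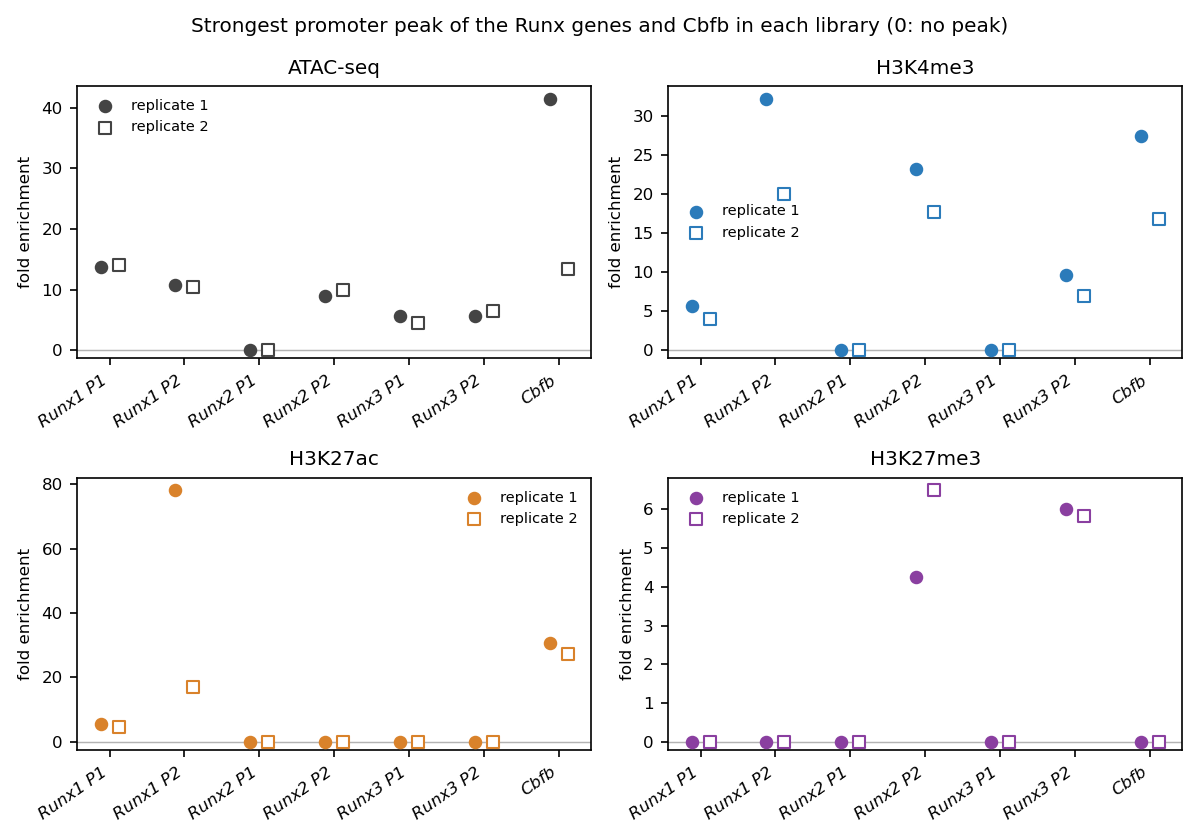
Fold enrichment of the strongest peak in each of the 7 separate promoters (x axis), 1 panel for each feature, with filled circles for replicate 1 and open squares for replicate 2, and 0 where no peak was called. H3K27ac is present only at both *Runx1* promoters and *Cbfb*, H3K27me3 only at *Runx2* P2 and *Runx3* P2, and the replicates part most at *Runx1* P2 (H3K27ac, 78.2 and 16.9) and *Cbfb* (ATAC-seq, 41.5 and 13.4).

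*Runx1* (ENSMUSG00000022952.17, chr16:92601466-92826149, minus strand) had both promoters marked, with much higher H3K4me3 and H3K27ac at P2. The strongest ATAC-seq peak in the P1 window (start sites 92826149 to 92825778) had a fold enrichment of 13.82 in replicate 1 and 14.02 in replicate 2, and its summit lay 1995 bp downstream of the nearest start site in both. At the start sites themselves ATAC-seq peaks were called only in replicate 1, with folds of 3.30 and 3.20. H3K4me3 at P1 reached 5.70 and 4.01 and H3K27ac 5.48 and 4.57, both low within their lists, since 9.56% and 3.8% of marked promoters had a lower H3K4me3 fold and 13.3% and 5.93% a lower H3K27ac fold. The H3K27ac values come from different peaks, and the element shared by the replicates had 4.53 and 4.57. With −log10 q of at least 5 H3K27ac was not called at P1 in replicate 2, which left H3K27ac at 4 of the 11 promoters.

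P2 of *Runx1* (start sites 92697328 to 92695495), which gives the shorter protein, carried 1 of the widest domains in these lists. A single H3K4me3 peak spanned 7759 bp in replicate 1 and 6297 bp in replicate 2, wider than at 99.7% of marked promoters in both. The H3K27ac peak spanned 5298 and 5146 bp, wider than at 99.8% and 99.9%. Its width was thus nearly the same in the replicates.

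The height of that H3K27ac peak was not. Its fold was 78.2 in replicate 1, the highest of the list (rank 1), and 16.9 in replicate 2 (rank 2463). Among all 15082 H3K27ac elements of both replicates, the ratio of replicate 1 to replicate 2 was highest here, at 4.62, against a median ratio of 1.19. The other 11 H3K27ac elements of the locus had ratios of 0.665 to 1.54, so that a gap of this size was seen at 1 of its 12 elements. This element was singled out after the values had been seen. At the same promoter the H3K4me3 fold was 32.3 and 20.1, a ratio of 1.61 against a median of 1.35, and the ATAC-seq fold 10.8 and 10.5. Without replicate 1, *Runx1* P2 had H3K27ac stronger than at 73.5% of marked promoters, and below *Cbfb*. What set replicate 1 apart was not tested.

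**Figure D2:**
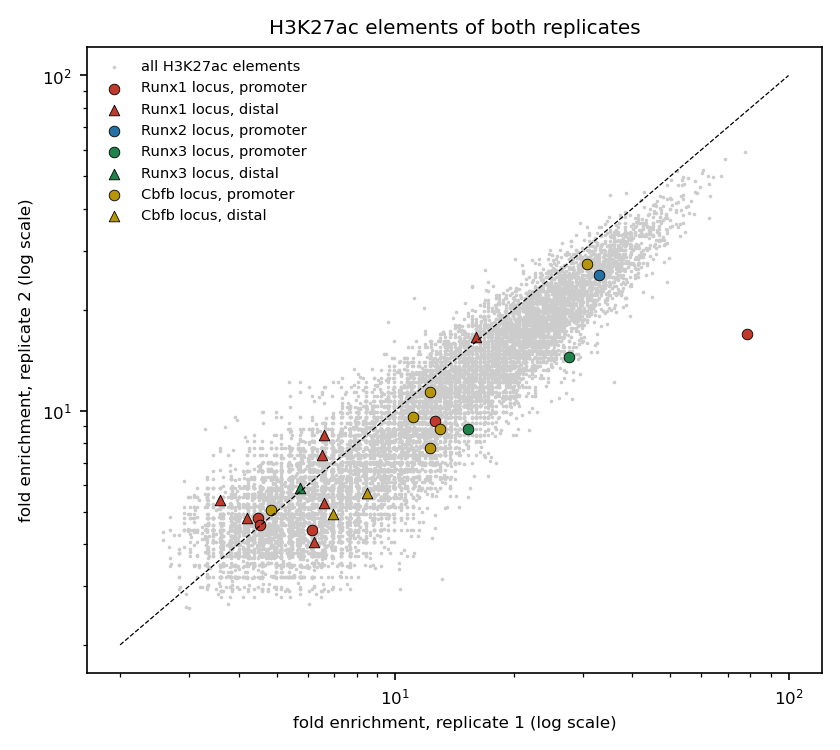
Fold enrichment of each H3K27ac element of both replicates, replicate 1 (x axis) against replicate 2 (y axis), both on a log scale, with the elements of the 4 loci in colour (circles within 3 kb of a start site of any gene, triangles distal) and equal values on the dashed line. The *Runx1* P2 element (78.18 and 16.92) lies apart from the cloud of 15082 elements, while the remaining elements of the 4 loci lie within it.

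*Cbfb* (ENSMUSG00000031885.14, chr8:105170674-105217989, plus strand) had 1 strongly marked promoter. H3K4me3 reached 27.5 in replicate 1 and 16.9 in replicate 2, with widths of 2833 and 2602 bp. H3K27ac reached 30.7 and 27.4, above 91.7% and 94.5% of marked promoters, and there was no H3K27me3 peak. The replicates thus gave *Cbfb* H3K27ac near the top of both lists, whereas its H3K4me3 fold stood above 63.1% and 50% of marked promoters.

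ATAC-seq at *Cbfb* depends on which peak is read. The peak over the start sites had folds of 9.26 and 13.38. In replicate 1 a peak of 121 bp, 1161 bp upstream of the first start site, had a fold of 41.52, and replicate 2 had no peak that overlapped it. The value of 41.5 thus stands for 1 library only.

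*Runx2* (ENSMUSG00000039153.16, chr17:44495987-44814797, minus strand) had 1 promoter without a called peak and 1 with both H3K4me3 and H3K27me3. No peak was called within 3 kb of the P1 start sites (44814797 to 44814226), from which the bone form is made. The nearest ATAC-seq peaks to its joined RUNX sites lay 16863 and 16866 bp away. P2 (44736648 to 44734693) had H3K4me3 of 23.3 and 17.8, above 51.3% and 53.2% of marked promoters, with peaks of 3038 and 2733 bp. The strongest ATAC-seq peak there, at 8.88 and 9.90, lay 1454 and 1423 bp upstream of the first start site.

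H3K27me3 at *Runx2* P2 came as several short peaks, 7 in replicate 1 and 10 in replicate 2, over spans of 5382 and 7364 bp. Their folds were 3.75 to 4.26 and 3.08 to 6.50. The list was called at a p of 0.001 and not by q, and 5 of the 7 and 7 of the 10 peaks had a q of at most 0.05. Of the bases under H3K27me3, 63.9% and 25.3% were also under H3K4me3 of the same replicate, and the rest lay to either side of it. The antisense RNA *Runx2os1* starts within this promoter, so that its marks and those of *Runx2* P2 cannot be told apart.

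The only H3K27ac in the whole *Runx2* locus belonged to another gene. It lay at the promoter of *Supt3*, the gene of a subunit of the SAGA acetyltransferase complex, which starts in the intron between P1 and P2 of *Runx2*, on the opposite strand, 37.4 kb downstream of P1. Its fold was 33.00 and 25.47, with H3K4me3 of 38.19 and 28.32 at the same place. A promoter with H3K27ac and one with H3K27me3 thus lay 40.8 kb apart within 1 gene body.

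*Runx3* (ENSMUSG00000070691.10, chr4:135120652-135177990, plus strand) had the lowest ATAC-seq and H3K4me3 folds of the 4 genes, taking the strongest promoter peak of each gene. At P1 (start site 135120652) the only peak was a narrow ATAC-seq peak of 139 and 168 bp with folds of 5.68 and 4.42, above 14.2% and 5.76% of marked promoters. That peak covered the joined RUNX sites printed above in both replicates, with its summit 30 bp before the centre of the run in replicate 1 and 3 bp after it in replicate 2. *Gm16225* starts within the same window, so that the peak cannot be given to 1 of the genes. At *Runx1* P1 an ATAC-seq peak covered the run in replicate 1 alone, with a fold of 3.30, and in replicate 2 the nearest peak was 1431 bp away.

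P2 of *Runx3* (135152496 to 135154436) had H3K4me3 of 9.69 and 6.94 in peaks of up to 1900 and 851 bp, above 18.1% and 13.8% of marked promoters. H3K27me3 was called in 13 and 9 peaks. They reached folds of 6.00 and 5.82, ranks 237 and 448 of their lists, and covered 39.1% and 64.5% of the promoter window. A q of at most 0.05 was met by 9 of the 13 and 9 of the 9. The peaks spanned 7731 and 7075 bp, of which H3K4me3 took the middle, and 37.3% and 22.8% of the H3K27me3 bases were also under H3K4me3.

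Many H3K27me3 peaks in 1 window are uncommon in these lists. With windows joined as here, 1283 promoters in replicate 1 and 1745 in replicate 2 had any, with a median of 2 peaks. As many as 13 were found at 17 promoters in replicate 1, and as many as 9 at 114 in replicate 2. For *Runx2* P2 the corresponding numbers were 150 promoters with at least 7 peaks and 70 with at least 10. These windows differ in length with the spread of the start sites, and the 2 *Runx* windows are among those with several start sites. Which cells carried each mark, and whether 1 cell carried both, cannot be told apart in a bulk sample.

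**Figure D3:**
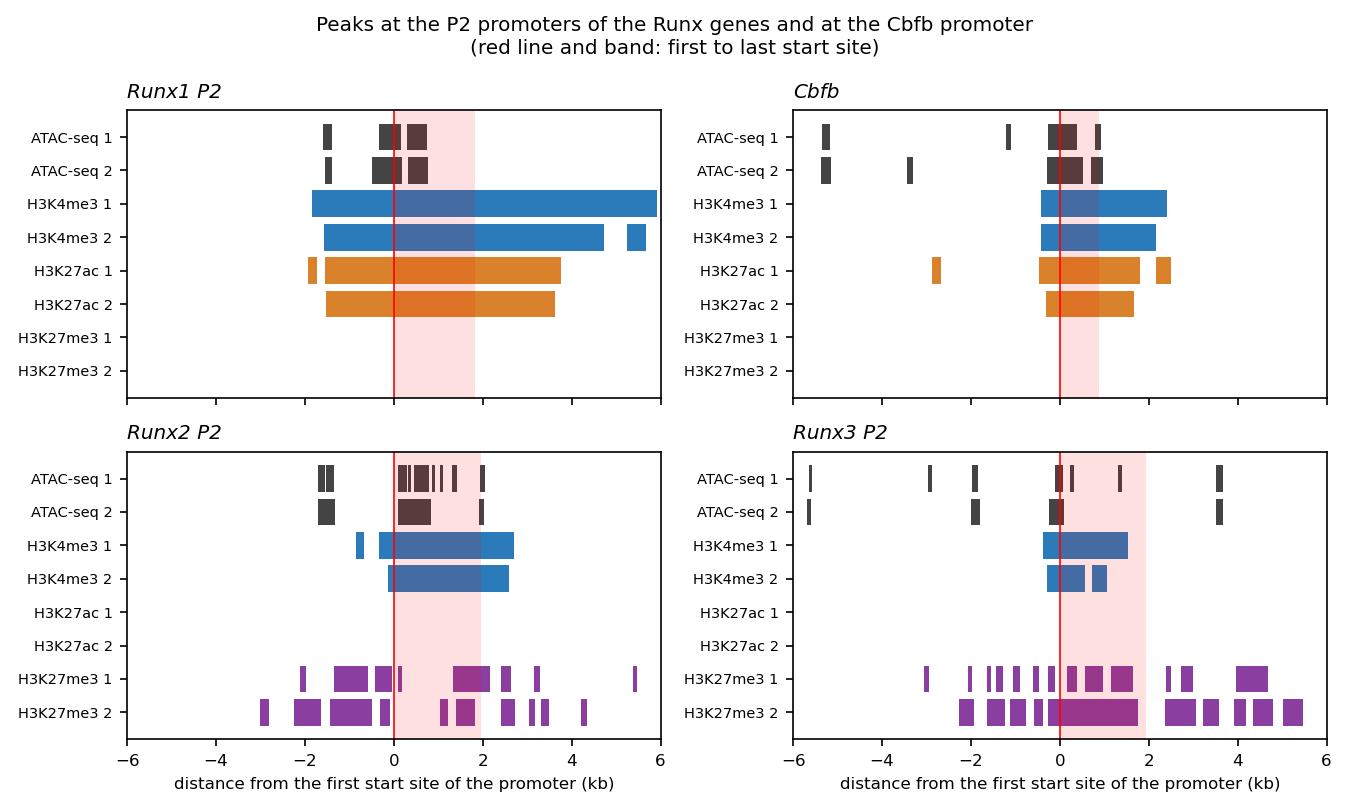
Peaks of the 8 lists (rows) within 6 kb of the first start site of *Runx1* P2, *Cbfb*, *Runx2* P2 and *Runx3* P2, by distance in kb in the direction of the gene, with the range of start sites shaded in red. At *Runx2* and *Runx3* short H3K27me3 peaks extend beyond both ends of the H3K4me3 domain and H3K27ac is absent, while at *Runx1* and *Cbfb* the H3K4me3 and H3K27ac domains overlap and H3K27me3 is absent.

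Outside promoters the 4 loci held many open elements, and acetylated ones that by number were mostly at *Runx1*. An element here is a region where peaks of both replicates overlap, and distal means over 3 kb from any start site. There were 89 distal ATAC-seq elements, of which 40 were at *Runx1*, 25 at *Runx3*, 17 at *Runx2* and 7 at *Cbfb*. Per 100 kb outside promoters this came to 10.2, 10.8, 3.63 and 5.19, against 1.88 over the genome. Among the loci of 21938 protein-coding genes, drawn in the same way, *Runx1* stood above 93.5% and *Runx3* above 94.8% in this density, *Cbfb* above 71.3% and *Runx2* above 59.1%. Most of the elements at *Runx3* lay outside the gene. Of its 25, 10 were upstream of P1 and 13 beyond the end of the gene, some of them within the next gene, *Clic4*. Only 1 was between P1 and P2, and 1 between P2 and the end of the gene.

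**Figure D4:**
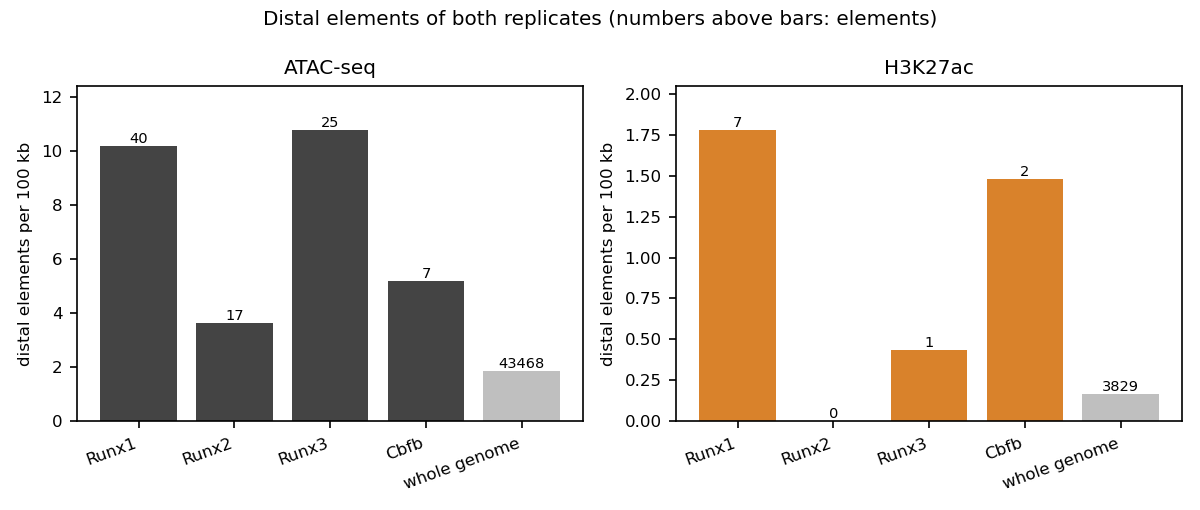
Distal elements of both replicates per 100 kb of sequence outside promoters (y axis) for the 4 loci and the whole genome, for ATAC-seq and H3K27ac, with the number of elements above each bar. The *Runx3* locus has the highest ATAC-seq density (10.8), with most of its elements in the flanks of the gene, but 1 H3K27ac element. For H3K27ac, *Runx1* has 7 elements (density 1.78) and *Cbfb* has 2 (1.48).

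Over the genome 10.1% of distal ATAC-seq elements overlapped an H3K27ac element, counted as 1 bp or more between the elements themselves. At *Runx1* 10 of 40 did (25%), at *Runx3* 1 of 25 (4%), at *Cbfb* 1 of 7 (14.3%) and at *Runx2* 0 of 17. The counts at the last 3 genes were small, and differences between genes were not tested. The *Cbfb* element was met by its H3K27ac element but not by H3K27ac peaks of both replicates. The 10 at *Runx1* were all among the 16 between P2 and the end of the gene. None of the 8 between P1 and P2, over 129 kb, nor of the 8 upstream of P1 and the 8 beyond the gene, overlapped an H3K27ac element.

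Of the 10 distal H3K27ac elements, 7 were therefore in the introns of *Runx1* downstream of P2. Per 100 kb outside promoters, H3K27ac came to 1.78 at *Runx1*, 1.48 at *Cbfb*, 0.433 at *Runx3* and 0 at *Runx2*. The genome had 0.165. Among the loci of protein-coding genes, *Runx1* stood above 94% in this density, *Cbfb* above 92% and *Runx3* above 75.2%. *Cbfb* was thus near *Runx1* in density, though not in number. All 10 overlapped an ATAC-seq element, as did 83.3% of the 3829 in the genome, or 81.6% where ATAC-seq peaks of both replicates each had to overlap. The strongest, chr16:92619823-92622192, had folds of 16.08 and 16.53, stronger by the lower replicate than 98.9% of distal H3K27ac elements, and lay 76.2 kb downstream of P2. By the lower replicate the next were chr16:92645443-92646729, at 6.58 and 8.46, and chr16:92631982-92633376, at 6.51 and 7.38. A further 3 H3K27ac elements between 92608319 and 92612678, with folds up to 12.60 and 9.33, count as promoter because the antisense RNA *Gm26626* starts beside them. They had no H3K4me3 of both replicates.

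The strongest distal ATAC-seq element of *Runx1* was elsewhere, in the intron between P1 and P2. It lay at chr16:92740031-92740404, 86 kb downstream of P1, had folds of 19.39 and 18.97, and carried no histone mark. The summits of the strongest H3K27ac element (chr16:92620800-92621000) and of this ATAC-seq element (chr16:92740074-92740274) are shown on the plus strand, 201 bases each, with the AP-1 core TGAGTCA in capitals. No RUNX core site (TGTGGT on either strand) is in them.
Runx1 acetylated element: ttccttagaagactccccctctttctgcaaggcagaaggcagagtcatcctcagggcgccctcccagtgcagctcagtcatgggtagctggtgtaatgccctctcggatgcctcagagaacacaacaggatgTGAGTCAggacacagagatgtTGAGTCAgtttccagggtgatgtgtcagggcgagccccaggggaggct
Runx1 open element: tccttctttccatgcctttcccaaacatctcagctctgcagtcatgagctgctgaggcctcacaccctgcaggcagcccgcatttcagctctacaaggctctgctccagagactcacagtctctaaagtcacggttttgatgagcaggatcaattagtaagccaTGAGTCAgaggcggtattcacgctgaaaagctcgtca

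The intron region 22 to 25 kb downstream of *Runx1* P1, where a blood stem cell enhancer of *Runx1* is known, held 1 ATAC-seq peak in each replicate, with folds of 7.02 and 5.14 and summits 24441 and 24260 bp downstream of the first start site. No histone mark was called there in any library. An open site without H3K27ac was thus what the lists showed in these cells.

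The distal elements of the remaining genes were fewer in number. *Cbfb* had H3K27ac at chr8:105186070-105186568 (8.49 and 5.67) and chr8:105186958-105187311 (6.96 and 4.91), in an intron 15.6 and 16.4 kb from the promoter. They lay to either side of its strongest distal ATAC-seq element, chr8:105186540-105186976, which had folds of 18.82 and 23.43. At *Runx3* the only one, chr4:135047364-135047909 (5.75 and 5.88), was intergenic and 73 kb upstream of P1. By the lower replicate, the strongest open elements of *Runx3* (chr4:135095755-135096122, 19.89 and 19.78, 24.7 kb upstream of P1) and *Runx2* (chr17:44508109-44508529, 15.25 and 13.86, in an intron 228 kb downstream of P2) carried no histone mark of both replicates. Another *Runx2* element, chr17:44609840-44610036, was higher in replicate 1, with 31.62 and 12.33.

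Summits of these ATAC-seq elements of *Cbfb* (chr8:105186604-105186804), *Runx3* (chr4:135095852-135096052) and *Runx2* (chr17:44508306-44508506) are shown on the plus strand, with the E-box CAGCTG, the form bound by MYOD1 in muscle cells, and the RUNX core site as ACCACA in capitals.
Cbfb open element: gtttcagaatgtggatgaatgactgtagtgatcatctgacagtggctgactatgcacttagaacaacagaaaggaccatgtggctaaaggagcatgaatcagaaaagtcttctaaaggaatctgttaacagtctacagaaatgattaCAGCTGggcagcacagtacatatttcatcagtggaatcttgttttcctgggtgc
Runx3 open element: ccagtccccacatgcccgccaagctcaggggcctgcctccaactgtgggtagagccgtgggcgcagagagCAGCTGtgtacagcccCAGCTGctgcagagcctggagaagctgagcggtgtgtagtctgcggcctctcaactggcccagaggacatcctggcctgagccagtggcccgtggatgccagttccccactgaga
Runx2 open element: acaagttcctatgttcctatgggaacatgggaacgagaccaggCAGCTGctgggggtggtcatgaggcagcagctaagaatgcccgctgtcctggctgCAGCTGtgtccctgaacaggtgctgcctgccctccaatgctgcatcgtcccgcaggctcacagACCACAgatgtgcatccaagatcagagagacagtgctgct

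The share of open elements with a RUNX core site in the *Runx* and *Cbfb* loci was near that of the genome within 100 bp of the summit, and lower within 50 bp. Within 100 bp of the summit, TGTGGT on either strand was found in 16 of the 89 distal ATAC-seq elements, 18% (95% Wilson interval 11.4 to 27.2%, which covers counting error only), against 18.6% of all 43468. The E-box CAGCTG was in 24 (27%, against 32.6%) and the AP-1 site TGACTCA on either strand in 23 (25.8%, against 23.1%). By gene the counts were small, such as 9 of 40 at *Runx1* and 1 of 17 at *Runx2* for TGTGGT, or 8 of 17 at *Runx2* for CAGCTG. With only 50 bp either side, TGTGGT was in 3 of 89 (3.37%), against 10.6% over the genome.

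**Figure D5:**
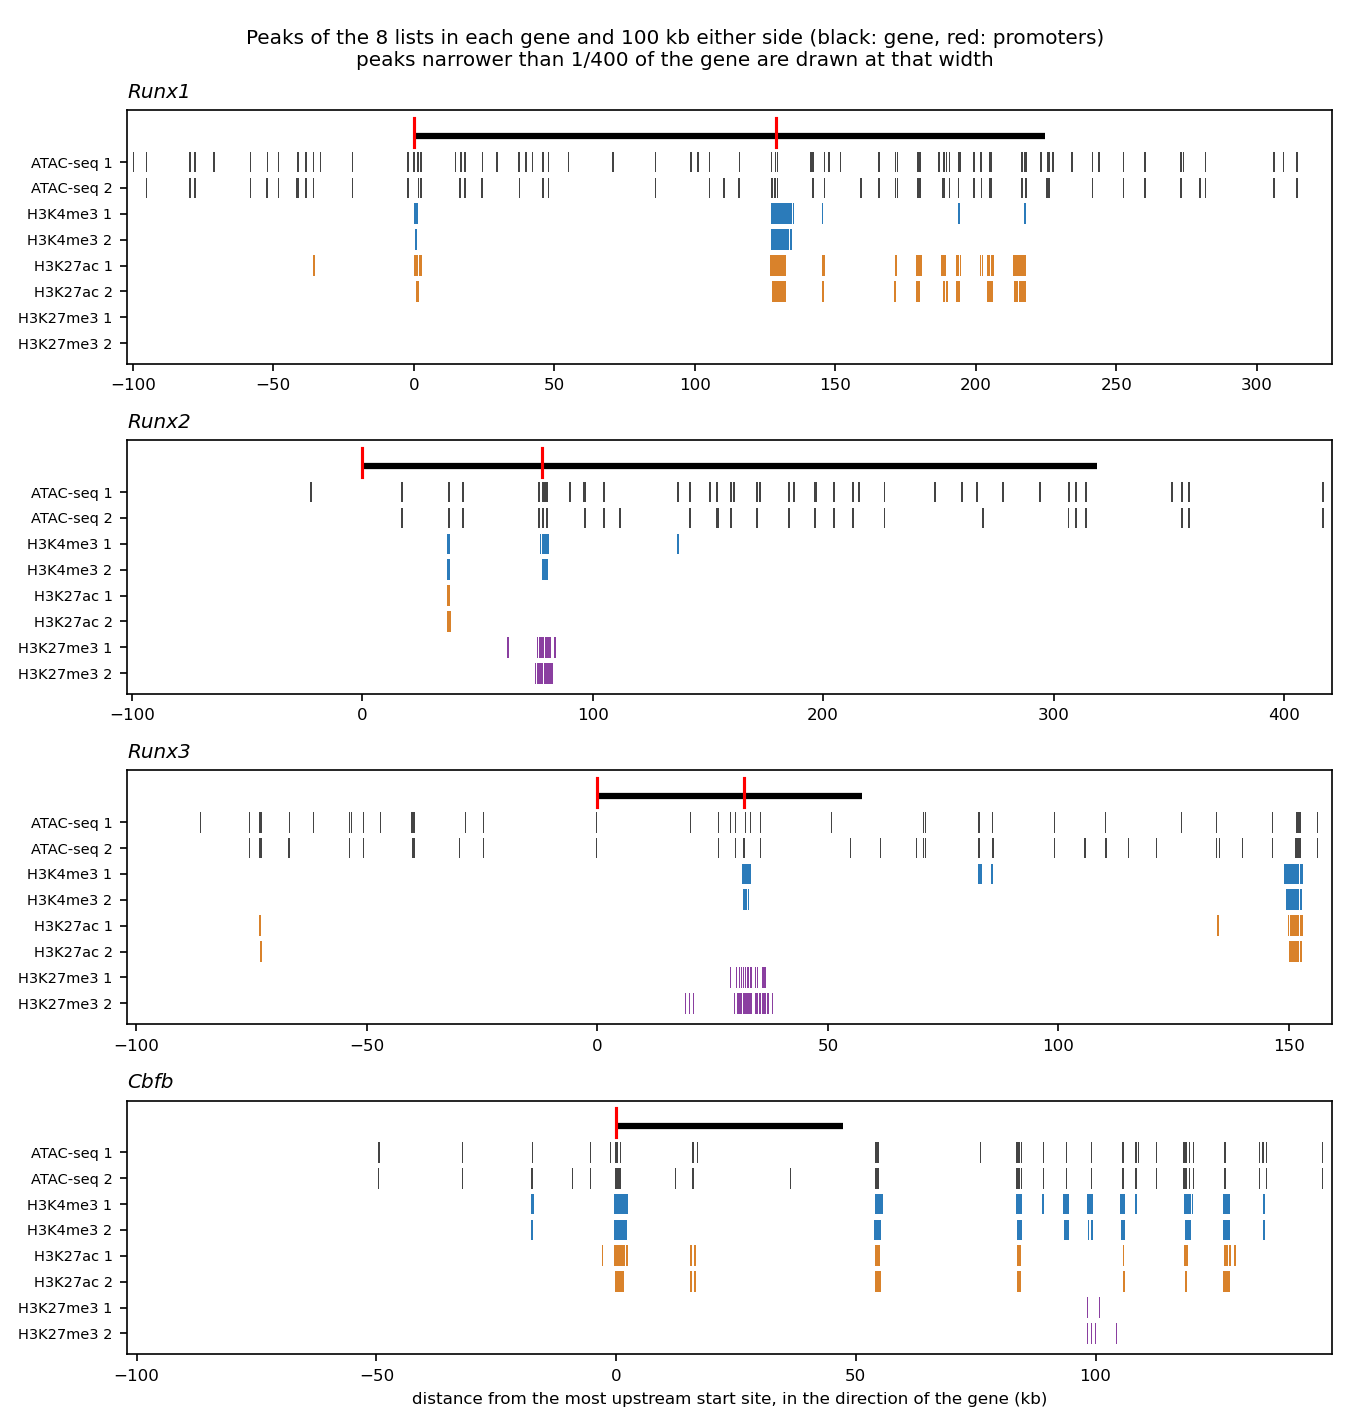
Peaks of the 8 lists (rows, replicate numbers at the row ends) in each gene and 100 kb either side, by distance in kb from the most upstream start site in the direction of the gene (black bar), with promoters in red. H3K27ac of *Runx1* clusters from P2 to the end of the gene, *Runx2* has H3K27ac only at *Supt3* 37.4 kb downstream of P1, *Runx3* has H3K27me3 around P2, and most peaks of the *Cbfb* locus lie at its neighbours.

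No H3K27me3 peak was called in the 425 kb of the *Runx1* locus in either replicate. Such peaks were sparse everywhere, at a promoter of 4.81% of all protein-coding genes. Outside promoters the genome had 0.0349 H3K27me3 elements of both replicates per 100 kb. The *Runx1* locus was also empty of other protein-coding start sites. *Runx2* and *Runx3* had 1 such neighbour each, *Supt3* and *Clic4*, a chloride channel protein gene, both with ATAC-seq, H3K4me3 and H3K27ac at the promoter in both replicates. *Cbfb* had 12, of which 10 had H3K4me3 and 6 had H3K27ac, against 60.8% and 46.6% of all protein-coding genes. *D230025D16Rik*, *B3gnt9*, *Nol3*, *4931428F04Rik*, *Exoc3l* and *E2f4* were the 6. In replicate 2 only 5 H3K27ac peaks lay in promoters of other genes of this locus, so that some neighbours share a peak. *Tradd*, *Fbxl8*, *Hsf4* and *Elmo3* had H3K4me3 without it, *Hsf4*, a heat shock factor gene of the lens, also had an H3K27me3 call, and the carboxylesterase genes *Ces3b* and *Ces4a* had no mark. The H3K27me3 call at *Hsf4* was weak, with folds of 2.95 and 2.76 and −log10 q of 0.1 and 0.2, so that it did not reach a q of 0.05 in either replicate.

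The genes whose promoter pattern came closest to each member differed by member. Likeness was the distance between percentiles of the strongest promoter peak within each of the 8 lists, with 0 where no peak was called. Genes whose promoter window overlapped that of the member were left out, as were names that start with Gm and a digit or end in Rik. For *Runx3* these were *Nkx2-2* (7.08), *Flt1* (9.34) and *En2* (9.71), and for *Runx2* they were *Mn1* (23.1), *Tmem8* (26.4) and *Kctd1* (26.6). *Zfp1* (17.4), *Susd6* (18.6) and *Syf2* (18.7) came nearest to *Runx1*, and *Gpx4* (15.1), *Smg1* (18.9) and *Mtmr3* (21.2) to *Cbfb*. Within the family the distance was 55 between *Runx1* and *Cbfb*, 69 between *Runx2* and *Runx3*, and 171 between *Runx1* and *Runx2*. It was 188 between *Runx2* and *Cbfb*, 205 between *Runx1* and *Runx3*, and 217 between *Runx3* and *Cbfb*. The place of *Runx1* rests in part on its H3K27ac in replicate 1, and that of *Cbfb* on its ATAC-seq peak in replicate 1.

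Genes of the textbook list of RUNX cofactors were marked as active almost throughout. The list was set only against all protein-coding genes, so whether this is particular to cofactors of RUNX was not tested. Of 24 cofactor genes, 24 had ATAC-seq and 24 had H3K4me3 at a promoter in both replicates, and 23 had H3K27ac, against 67.8%, 60.8% and 46.6% of all protein-coding genes. The median H3K4me3 fold of the marked genes, by the lower replicate, was 27.3, against 17.6 over all marked genes. *Hipk2*, a kinase that phosphorylates RUNX proteins, had the highest H3K4me3 by the lower replicate, with 45.99 and 34.71, followed by the histone deacetylase gene *Hdac1* (38.95 and 33.87) and the acetyltransferase gene *Kat6a* (38.97 and 33.47). In replicate 1 alone *Prmt1*, for an arginine methyltransferase, stood higher (50.27 and 29.45). *Runx1t1*, known as the fusion partner of RUNX1 in leukaemia, had H3K27ac in replicate 1 alone, at 5.14, and is named here after its values were seen. *Tle1*, a Groucho corepressor (3.93 and 2.99), and *Ets1*, a partner in DNA binding (3.28 and 4.45), also had H3K27me3, against 4.81% of all genes.

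Textbook targets of RUNX in other tissues mostly lacked H3K4me3 and H3K27ac. Of 12 blood targets 8 were open (66.7%, against 67.8% of all genes), 3 had H3K4me3 (25%, against 60.8%), 1 had H3K27ac (8.33%, against 46.6%) and 1 had H3K27me3 (8.33%, against 4.81%). *Zbtb7b*, which directs CD4 T cells, had H3K4me3 of 26.60 and 18.24 and H3K27ac of 13.03 and 11.03. *Gfi1*, a repressor of blood cells, had H3K4me3 of 8.79 and 6.61 with H3K27me3 of 6.75 and 6.16, and *Spi1*, the gene of PU.1, had H3K4me3 of 5.50 and 3.41. Of 10 bone and cartilage targets 5 were open (50%), and 2 had H3K4me3 (20%), namely *Col1a1*, for type I collagen (7.72 and 5.55), and *Alpl*, for alkaline phosphatase (6.00 and 4.01). *Alpl* alone had H3K27ac (5.37 and 3.68), and *Ihh*, the hedgehog ligand of cartilage, alone had H3K27me3 (4.50 and 4.45).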

How the data were processed

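Peak lists of 8 libraries of mouse MuSCs were used (2 replicates each of ATAC-seq, H3K4me3, H3K27ac and H3K27me3). The authors trimmed reads (Trim Galore 0.6.10), aligned them to mm10 (BWA 0.7.17-r1188), dropped mapping quality under 30, duplicates and blacklisted regions (SAMtools 1.5, BEDTools), corrected the Tn5 offset (deepTools 3.5.5) and called peaks per library with MACS2 2.2.6. In the deposited lists the fold is a ratio, the enrichment at the summit over a background that is not given in the sources used here (input libraries exist, but their use in peak calling is not stated), the authors' p-value and q-value are on the −log10 scale, and their score repeats these. Ranks and percentiles of folds were taken within a list. Between lists, folds were set together only for the replicates of 1 feature, as ratios or to take the lower replicate. The replicates were not on a common scale, with median ratios of replicate 1 to replicate 2 of 1.35 for H3K4me3 and 1.19 for H3K27ac. The H3K27me3 threshold differs (p 0.001).

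Overlaps of at least 1 bp with GENCODE M21 were counted on the 21 assembled chromosomes (Python 3.11.15, numpy 2.4.6), with code tested on simulated intervals. Genes were named by a rule: all members, their 3 strongest distal H3K27ac elements and strongest ATAC-seq element, all coding neighbours, the 3 highest H3K4me3 genes and the H3K27me3 genes of each list, and the 3 genes most alike. Members and lists were chosen with earlier results of these data known, so counts are descriptions and no test was run. The MuSC, blood, fibro-adipogenic, endothelial and bone markers, 24 cofactors and 22 targets were textbook lists. Alternatives were another promoter width, grouping, overlap, threshold or motif window, and each replicate alone. Editing samples were not analysed here.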

Additional observations from a re-analysis of the deposited data

How the results depend on the processing

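No paired analysis was possible because the libraries stand for 1 condition and no result comes from a test. Of 107 alternative values for the counts and shares, 85 stayed within 1.5 times the reported one. Counting every start site apart gave 26, 25, 14 and 11 of 31 marked with ATAC-seq, H3K4me3, H3K27ac and H3K27me3, and joining overlapping windows, an alternative added after seeing the data, gave 6, 5, 3 and 2 of 7, both because the number of promoters changes. With −log10 q of at least 5, H3K27me3 was left at 2 of 11 promoters, those of *Runx3*, and at 0 cofactors and 0 bone and cartilage targets, and H3K27ac at 4 of 11 promoters, without *Runx1* P1, and at 0 bone and cartilage targets. With 1 kb either side of start sites, ATAC-seq was left at 7 of 11 promoters. At that width 0 cofactors had H3K27me3, and 2 and 0 bone and cartilage targets had ATAC-seq and H3K27ac. Distal H3K27me3 elements were 0 at 3 kb and 5 beyond 1 kb from start sites. Leaving out a replicate gave 114 to 158 distal ATAC-seq elements, 12 to 17 distal H3K27ac elements, 3 to 5 for H3K27me3, and 1 to 2 blood targets with H3K27ac. TGTGGT within 50 bp of the summit fell to 3.37%, from 18% within 100 bp. Over the genome the share also fell with the narrower window, from 18.6% to 10.6%. The cause of the lower share in the 4 loci was not tested. Depth is unknown, and 2 libraries per feature give no error beyond their own spread.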
